A study of Mus musculus with 8 samples.

Results

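The myelin and mature oligodendrocyte genes are 29 genes chosen by name, all 29 of them found in the deposited table of 54532 genes and all 29 with a mean of at least 1 FPKM (reads scaled by gene length and library size) over the libraries, as were 13716 genes in all. They were followed in substantia nigra RNA of male C57BL/6 mice, the midbrain region that holds dopamine neurons, in 4 groups of 2 libraries. Libraries titled WT, with the treatment given as control, form the control group. The vector group carried AAV-α-synuclein, where AAV stands for adeno-associated virus. The AKG group was labelled with AKG alone, which the title spells out as α-ketoglutarate taken by diet and which is a metabolite of the TCA cycle. Libraries labelled AAV-α-synuclein+AKG form the combined group. The sources used here do not give the promoter of the virus, doses, times, the age of the mice, or whether control and AKG mice had an empty virus. Whether the libraries of a group are separate mice is also not stated, so p-values measure only the spread between these samples, which may be technical.

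Oligodendrocytes wrap axons of the central nervous system in myelin, a stack of compacted membrane rich in cholesterol and galactolipids that speeds conduction and feeds the axon. Transcription factors such as Olig2 and Sox10 commit precursor cells to the lineage, Sox10 then switches on Myrf, and Myrf drives the genes for myelin proteins and myelin lipids. The substantia nigra lies beside the heavily myelinated cerebral peduncle, and oligodendrocytes are among its most numerous cells.

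In none of the 6 comparisons made among the 4 groups did a member pass the test, and the libraries of one group often lay further apart than the groups did. The difference between the libraries of the widest group exceeded the difference between the highest and the lowest group mean in 29 of 29 members, against 66.2% of all tested genes. On the log2(FPKM + 1) scale the median of that largest within-group difference was 0.77 for the members and 0.34 for all tested genes. The median of the largest difference between group means was 0.30 for the members and 0.27 for all tested genes. The widest group was control for 15 members, combined for 13 and vector for 1.

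RefSeq promoter windows (GRCm38.p6, the 250 bases before an annotated start) were at hand for 21 of the 29 members, 28 windows in all. They were searched on both strands for letters that SOX factors bind (ACAAAG and ACAATG) and that Myrf binds (CTGGCAC and CTGGTAC). SOX letters lay in 14 of 28 member windows and in 25.2% of 32851 windows of all genes. MYRF letters lay in 5 of 28 (17.9%) and in 5.93% of all. Some windows of Mag overlap and hold the same matches, so counts by gene are given too. SOX letters lay in 12 of the 21 members and in 28.2% of 27025 genes, and MYRF letters in 4 and in 6.79%. A match is a description of the letters only. The next 5 windows are shown because their genes part in control library 1, where Mal and Opalin were level with control library 2 and Ermn and Tmem88b were far below it, with Mog between. Among windows not shown, the letters did not follow this split throughout. The window of Ugt8a, whose control libraries were 3.18-fold apart, held no SOX or MYRF letters. That of Mobp, 1.13-fold apart, held 6 SOX matches. Whether letters and split go together was not tested. Capitals mark SOX letters in Opalin, Ermn and Tmem88b and MYRF letters in Mog, and the Mal window holds neither. All 5 genes lie on the minus strand, and the windows are chr2:127656696-127656945 (Mal), chr19:41077114-41077363 (Opalin), chr2:58052865-58053114 (Ermn), chr4:155785875-155786124 (Tmem88b) and chr17:37023399-37023648 (Mog).
Mal: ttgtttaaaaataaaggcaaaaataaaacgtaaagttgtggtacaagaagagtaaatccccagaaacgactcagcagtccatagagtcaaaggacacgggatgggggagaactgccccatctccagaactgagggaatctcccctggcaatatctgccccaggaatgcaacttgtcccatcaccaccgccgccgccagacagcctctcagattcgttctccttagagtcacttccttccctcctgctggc
Opalin: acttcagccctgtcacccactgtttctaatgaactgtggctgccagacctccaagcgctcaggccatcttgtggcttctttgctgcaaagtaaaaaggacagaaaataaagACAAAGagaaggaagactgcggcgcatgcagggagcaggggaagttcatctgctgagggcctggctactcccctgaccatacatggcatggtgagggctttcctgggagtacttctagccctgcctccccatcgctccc
Ermn: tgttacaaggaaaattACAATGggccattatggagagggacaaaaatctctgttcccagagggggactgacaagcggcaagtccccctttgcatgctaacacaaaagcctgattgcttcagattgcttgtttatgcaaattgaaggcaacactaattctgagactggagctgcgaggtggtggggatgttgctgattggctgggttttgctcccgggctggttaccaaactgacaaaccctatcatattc
Tmem88b: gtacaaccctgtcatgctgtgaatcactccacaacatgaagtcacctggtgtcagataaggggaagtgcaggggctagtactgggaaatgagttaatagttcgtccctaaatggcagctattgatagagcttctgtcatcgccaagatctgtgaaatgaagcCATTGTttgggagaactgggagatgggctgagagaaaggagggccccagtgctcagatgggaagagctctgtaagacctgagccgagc
Mog: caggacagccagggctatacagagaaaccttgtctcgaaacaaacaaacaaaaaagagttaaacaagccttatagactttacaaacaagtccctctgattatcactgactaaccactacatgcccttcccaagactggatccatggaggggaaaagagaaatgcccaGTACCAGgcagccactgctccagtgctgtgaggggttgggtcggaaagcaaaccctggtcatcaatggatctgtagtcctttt

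The libraries held 16544190.0 to 19125423 reads recovered from the deposited FPKM, of which 143183 to 252635 (0.844% to 1.39%) fell on the members. Control library 1 stood apart from the other 7, with a mean Spearman correlation across tested genes of 0.926 against 0.971 to 0.975. In that library 10 choroid plexus markers summed to 8970 FPKM, against 55.5 to 4971 in the others, 5 red blood cell genes to 14.6 against 172 to 444, and 10 neuron markers to 1197 against 1729 to 1802. The members' comparisons with control are therefore given with and without it. The 7 dopamine neuron markers summed to 142 and 138 FPKM in the control libraries and to 55.0 to 80.3 in the other 6, so the marker genes of the labelled region were present in all. In bulk tissue, fewer oligodendrocytes and less RNA per oligodendrocyte cannot be told apart.

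Levels per length spanned a wide range. Mbp had the highest mean, 556 FPKM over the 8 libraries, and Enpp6 the lowest, 1.37. The least covered member, Enpp6, had 114 to 202 reads per library, a counting error of up to 9.37%, and the median member had 1160 reads in its lowest library, a counting error of about 2.94%. Counting error alone was thus small beside the range over libraries, which ran from 1.39-fold for Mal to 3.36-fold for Myrf with a median of 1.91-fold.

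The libraries ordered the members in much the same way. Combined library 2 was the highest of all 8 for 23 members and control library 2 for the other 6. The lowest library was control library 1 for 15 members, vector library 2 for 7, AKG library 1 for 4 and combined library 1 for 3. Summed over the 29 genes, the level was 1939 and 2629 FPKM in the control libraries, 2113 and 1771 in the vector libraries, 1800 and 2136 in the AKG libraries and 1852 and 2875 in the combined libraries. Every pair of groups overlapped in this sum, and each treated group had 1 library between 1771 and 1852 FPKM.

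**Figure D1:**
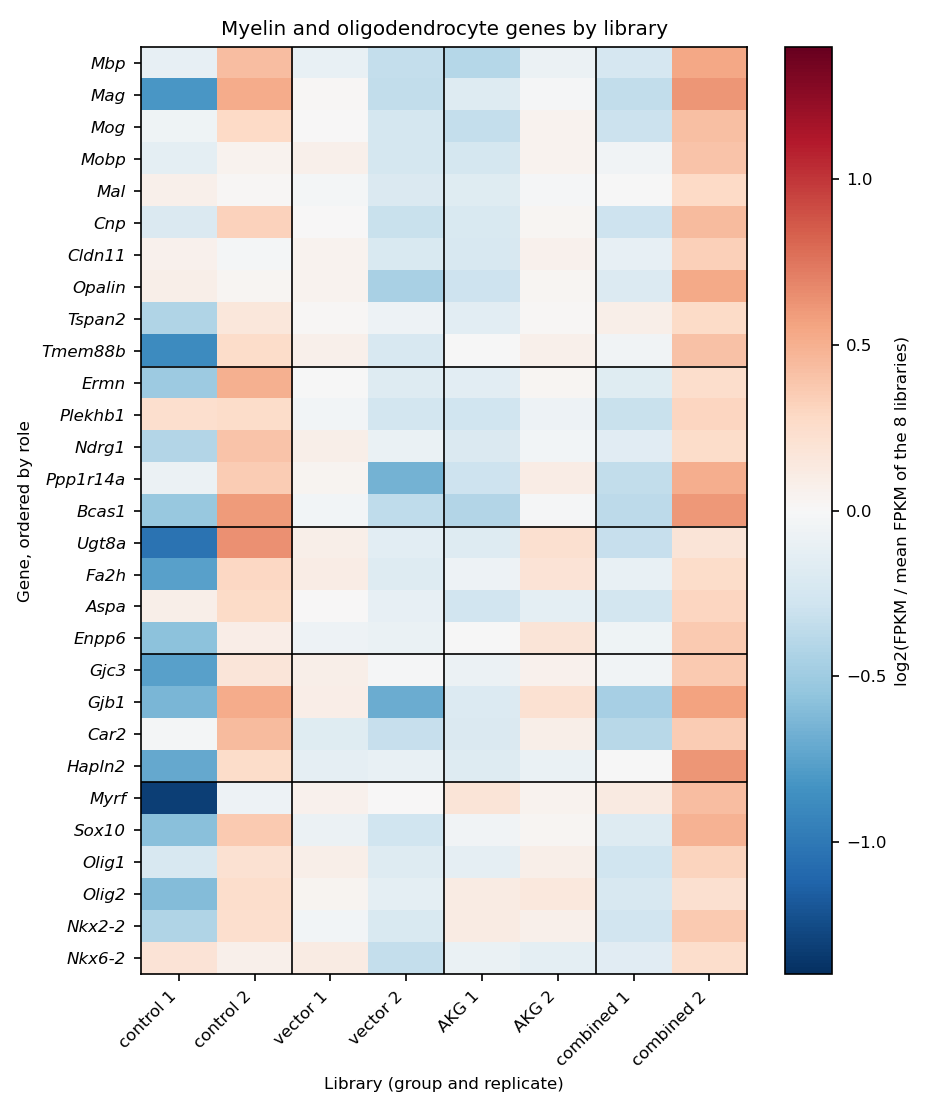
Heat map of the 29 genes (rows, grouped by role) in the 8 libraries (columns), colour showing log2 of a library's FPKM over the gene's mean of the 8 libraries. Combined library 2 is red for all 29 genes, while control library 1 is deep blue for Myrf, Ugt8a, Mag and Tmem88b and pale for Mal, Cldn11 and Opalin.

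Replicate ratios put a number on this. In the combined group replicate 2 was above replicate 1 for 29 of 29 members, with a median ratio of 1.47 and a range from 1.14 (Tspan2) to 2.04 (Gjb1), while replicate 2 was higher for 51.3% of all tested genes. In the control group replicate 2 was higher for 25 members, with a median ratio of 1.57 and a range from 0.920 (Nkx6-2) to 3.18 (Ugt8a), against 55.1% of all tested genes. The vector group went the other way, with replicate 1 higher for 28 members and a median ratio of replicate 2 to replicate 1 of 0.853. In the AKG group replicate 2 was higher for 26 members, with a median ratio of 1.14. Replicate numbers carry no order, so these ratios only measure how far the libraries of one group lay apart.

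**Figure D2:**
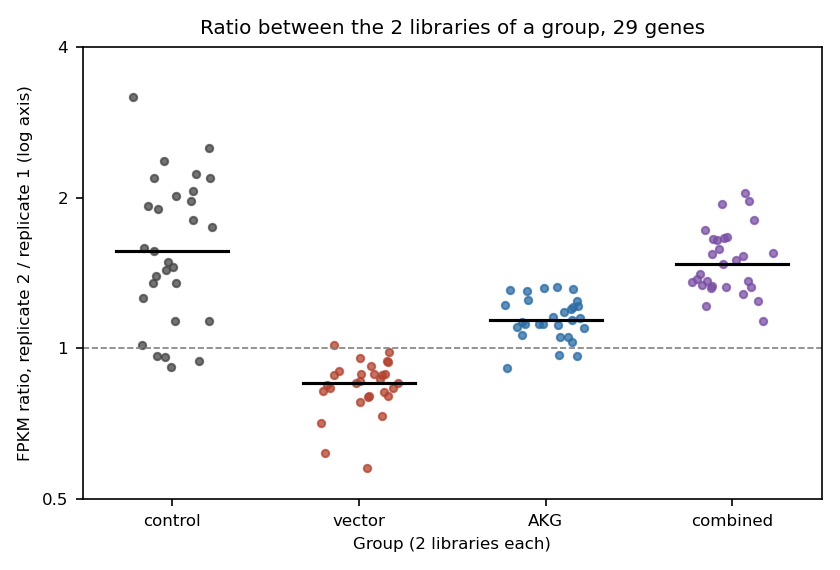
Ratio of FPKM in replicate 2 to replicate 1 of each group (log axis), 1 point per gene for the 29 genes, with the median as a black bar. The combined points all lie above 1 around a median of 1.47, and the control points spread from 0.920 to 3.18.

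Proteins of the compact myelin membrane and its edges were described first. Mbp, which binds the inner faces of the membrane together, was at 515 and 748 FPKM in the control libraries, 519 and 442 in the vector libraries, 421 and 524 in the AKG libraries and 471 and 811 in the combined libraries. Mobp, another small basic myelin protein, was at 175 and 198 in control, 200.4 and 161 in vector, 162 and 197 in AKG and 185 and 253 in combined libraries. Cnp, an enzyme that keeps channels of cytoplasm open within myelin, was at 153 and 219 in control, 176 and 141 in vector, 152 and 179 in AKG and 144 and 239 in combined libraries. For all these genes the highest library was combined library 2, and the groups overlapped in every pair.

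Adhesion and surface proteins came next. Mag (GRCm38 chromosome 7, 30899176 to 30914873), an adhesion protein of the membrane next to the axon, was at 43.0 and 108 FPKM in control, 76.3 and 59.5 in vector, 66.8 and 74.6 in AKG and 59.6 and 116 in combined libraries. Its control libraries differed 2.51-fold, so that all 4 libraries of the vector and AKG groups lay inside the control range. Mog (chromosome 17, 37010743 to 37023398), an immunoglobulin-domain protein on the outer face of myelin, was at 54.9 and 69.3 in control, 57.3 and 48.3 in vector, 45.5 and 59.2 in AKG and 46.6 and 76.7 in combined libraries. Its control libraries lay closer together than those of Mag.

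Mal (chromosome 2, 127633226 to 127656695), a membrane-raft protein of myelin, had the narrowest range of all 29 members. It was at 139 and 134 FPKM in control, 130.2 and 115 in vector, 118 and 131 in AKG and 132 and 160.0 in combined libraries. Both vector and both AKG libraries lay below both control libraries, and both combined libraries lay above all 4 of them. Its log2 differences were small, at -0.16 ± 0.14 (SE) for vector against control, -0.14 ± 0.14 for AKG against control, 0.24 ± 0.14 for combined against vector and 0.23 ± 0.14 for combined against AKG, and none passed (limma adjusted p = 0.510, 0.580, 1.0 and 1.0). Tmem88b, a membrane protein of the lineage, was at 17.3 and 37.9 FPKM in control, 33.3 and 27.2 in vector, 31.7 and 33.4 in AKG and 30.7 and 42.3 in combined libraries, with control library 1 below all others. The other members of this role were Cldn11, the claudin of myelin tight junctions (106 to 155 FPKM over the 8 libraries), the sialoglycoprotein Opalin (11.2 to 22.1) and the tetraspanin Tspan2 (26.1 to 42.0).

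Genes of the cytoskeleton and cell processes followed. Plekhb1, a pleckstrin-homology protein abundant in myelinating cells, was at 222 and 226 FPKM in control, 184 and 158 in vector, 155 and 179 in AKG and 152 and 233 in combined libraries. Here control library 1 was level with control library 2, and the vector and AKG libraries all lay below both. Ppp1r14a, an inhibitor of myosin phosphatase, was at 25.1 and 33.9 in control, 27.2 and 16.8 in vector, 21.7 and 28.5 in AKG and 20.9 and 37.7 in combined libraries. Bcas1, a marker of oligodendrocytes that have begun to myelinate, was at 41.3 and 90.3 in control, 58.0 and 46.6 in vector, 45.04 and 58.8 in AKG and 46.1 and 90.8 in combined libraries. Its control library 2 and combined library 2 stood well above the other 6, which lay between 41.3 and 58.8. Ermn, an actin-binding protein of late myelination, ranged from 17.7 to 35.8 FPKM and Ndrg1, which is expressed by myelinating cells, from 18.9 to 33.0, both lowest in control library 1 and highest in control library 2.

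Enzymes of myelin lipids and acetylaspartate were less abundant. Ugt8a, which makes the galactolipid galactosylceramide, was at 7.11 and 22.6 FPKM in control, 15.4 and 13.1 in vector, 12.8 and 17.0 in AKG and 11.6 and 16.4 in combined libraries. Its control libraries, 3.18-fold apart, held the lowest and the highest of the 8 values. Enpp6, a choline phosphodiesterase that marks newly formed oligodendrocytes, was at 0.92 and 1.46 in control, 1.31 and 1.29 in vector, 1.36 and 1.56 in AKG and 1.32 and 1.76 in combined libraries. Fa2h, which hydroxylates the fatty acids of myelin galactolipids, ranged from 11.8 to 24.2 FPKM. Aspa, which splits N-acetylaspartate into acetate for lipid synthesis, was at 4.61 and 5.23 FPKM in control, 4.35 and 4.02 in vector, 3.60 and 3.96 in AKG and 3.65 and 5.37 in combined libraries, and its vector and AKG libraries lay below both control libraries.

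Connexins, carbonic anhydrase and a matrix gene came next. Car2, the carbonic anhydrase of oligodendrocytes, was at 102 and 142 FPKM in control, 92.6 and 83.5 in vector, 91.0 and 111 in AKG and 79.9 and 133 in combined libraries. Both vector libraries lay below both control libraries. Gjc3, a connexin of myelinating glia, was at 9.36 and 17.8 in control, 16.8 and 15.7 in vector, 15.0 and 16.5 in AKG and 15.4 and 20.4 in combined libraries. Gjb1, the connexin that links layers of myelin, ranged from 11.7 in vector library 2 to 28.2 in combined library 2. Hapln2 (chromosome 3, 88021750 to 88027583), a link protein of the matrix at the nodes of Ranvier, was at 14.6 and 28.7 in control, 22.001 and 22.4 in vector, 21.1 and 22.5 in AKG and 23.9 and 36.8 in combined libraries. Both combined libraries lay above all vector and AKG libraries, and the control libraries lay on either side of those.

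Among the transcription factors, Myrf set itself apart by its low value in control library 1. Myrf (chromosome 19, 10208272 to 10240748) was at 3.03 and 7.17 FPKM in control, 7.88 and 7.55 in vector, 8.52 and 7.78 in AKG and 8.20 and 10.2 in combined libraries. It was the only member for which all 6 treated libraries lay above both control libraries, and 7.17 in control library 2 was close to the 7.55 of the lowest treated library. Sox10, the lineage factor upstream of Myrf, was at 15.9 and 30.6 in control, 22.5 and 19.6 in vector, 23.0 and 24.3 in AKG and 21.0 and 33.2 in combined libraries. Olig2, needed to specify the lineage, was at 16.3 and 29.5 in control, 25.4 and 22.6 in vector, 26.8 and 27.6 in AKG and 21.3 and 28.98 in combined libraries. For Sox10 and Olig2 every vector and AKG library lay between the control libraries. Olig1 ranged from 102 to 153 FPKM, and the homeobox factors Nkx2-2 and Nkx6-2, which act in oligodendrocyte differentiation, from 2.72 to 4.67 and from 27.5 to 41.0.

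**Figure D3:**
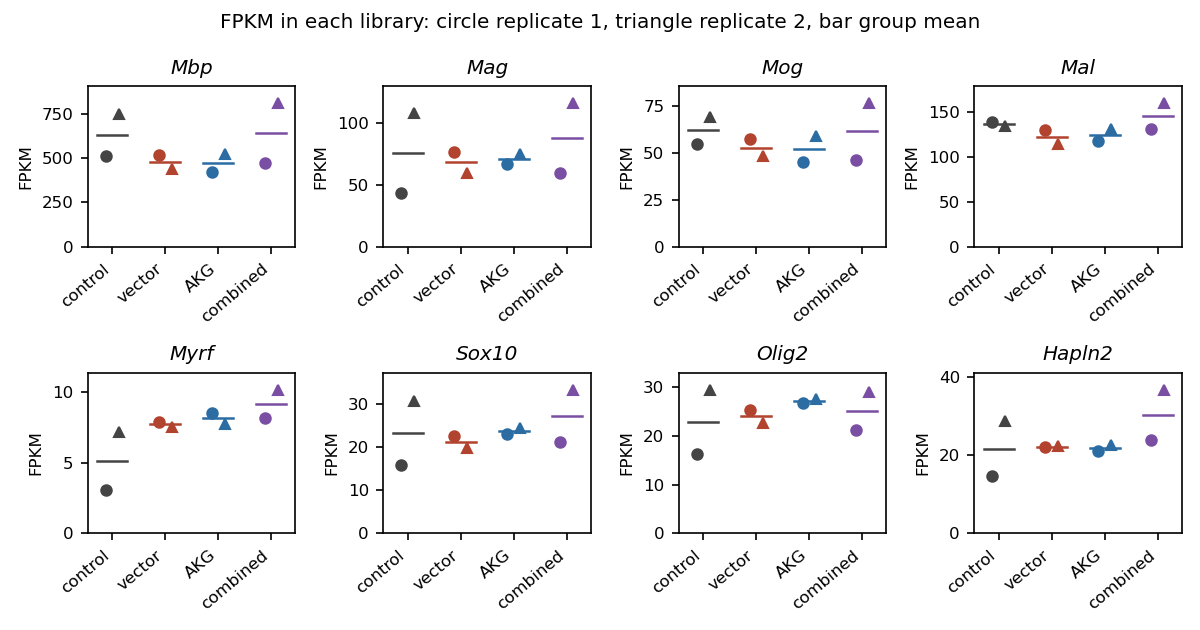
FPKM of 8 of the genes in every library (circle for replicate 1, triangle for replicate 2, bar for the group mean), each axis starting at 0. Mag, Sox10, Olig2 and Hapln2 show control libraries that span the vector and AKG libraries, Mal shows little spread, and Myrf shows 1 low control library at 3.03 FPKM.

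Vector against control addresses the virus alone. Differences come from limma over all 13716 tested genes, each with its standard error after ±, in log2(FPKM + 1), a scale that understates the change of low genes. Of the 29 members 10 lay above control and 19 below, with a median of -0.07 against -0.01 for all tested genes. No member passed an adjusted p of 0.05, where limma called 0% of all tested genes, and none had an unadjusted p under 0.05, against 16.8% of all. The largest differences were Myrf at 0.60 ± 0.30 and Gjc3 at 0.30 ± 0.27 above control, and Car2 at -0.45 ± 0.27 and Ppp1r14a at -0.43 ± 0.33 below it (limma adjusted p = 0.315, 0.517, 0.364 and 0.462). Both vector libraries lay above both control libraries for 1 member (3.45%), Myrf, against 26.3% of all tested genes. They lay below for 4 (13.8%), Mal, Aspa, Car2 and Plekhb1, against 27.6%. With quantile normalization these counts were 3 above and 2 below, while the shares of all tested genes just given are those of the settings used. Voom on the recovered reads called 0 members as well.

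These values turned on which control library was used. Without control library 1 the members' median was -0.32, 0 were called, and both vector libraries lay below the remaining control library for 24 of 29, against 40.5% of all tested genes. Without control library 2 the median was 0.26, limma called 4 members (Ugt8a, Gjc3, Myrf and Tmem88b) and 24.5% of all tested genes, and the vector libraries lay above for 16 members, against 45.3% of all. Myrf was at 0.09 without control library 1 and 1.11 without control library 2, and Gjc3 at -0.13 and 0.73.

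AKG against control addresses AKG alone, with the same control libraries as above. Of the members 13 lay above control and 16 below, with a median of -0.05 against -0.01 for all tested genes. Limma called 0 members and 0.00729% of all tested genes, and at an unadjusted p under 0.05 there were 0 members and 17.7% of all. The ends of the range were Myrf at 0.67 ± 0.30 and Tmem88b at 0.33 ± 0.34 above control, and Plekhb1 at -0.42 ± 0.21 and Mbp at -0.40 ± 0.30 below it (limma adjusted p = 0.289, 0.589, 0.319 and 0.462). The groups did not overlap for Myrf, which was higher (3.45% of members against 26% of all tested genes), and for Mal, Aspa, Plekhb1 and Nkx6-2, which were lower (13.8% against 26.4%). Without control library 1 the median was -0.36, 0 members were called and 25 lay below the remaining control library in both AKG libraries, against 39.2% of all tested genes. Without control library 2 the median was 0.31, and limma called 6 members and 24.6% of all tested genes. Tmem88b was then at 0.87, and at -0.21 without control library 1.

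The combined group was set against the same controls. Of the members 22 lay above control and 7 below, with a median of 0.10 against -0.01 for all tested genes, and limma called 0 of 29 (0% of all tested genes). At an unadjusted p under 0.05 there was 1 member, Myrf, against 13.9% of all. Myrf was at 0.82 ± 0.30 and Hapln2 at 0.51 ± 0.31, while Plekhb1 was at -0.25 ± 0.21 and Car2 at -0.22 ± 0.27 (limma adjusted p = 0.349, 0.431, 0.544 and 0.670). Only Myrf was higher in both combined than in both control libraries (3.45% of members against 21.3% of all tested genes), and 0 members were lower, against 20.5%. Without control library 1 the median was -0.20 and 0 were called. Without control library 2 it was 0.40, and limma called 7 members, Myrf among them at 1.33, and 21.3% of all tested genes. Without combined library 2 the median was -0.15 and without combined library 1 it was 0.38, with 0 called in both.

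Combined was compared with vector to ask what AKG changed in mice that carried the virus. Of the members 28 lay above vector and 1, Ugt8a, below, with a median of 0.20 against 0.01 for all tested genes. Limma called 0 members and 0% of all tested genes, and 0 members had an unadjusted p under 0.05, against 1.36% of all. Hapln2 was at 0.40 ± 0.31 and Ppp1r14a at 0.38 ± 0.33, while Ugt8a was at -0.04 ± 0.45 and Olig2 at 0.05 ± 0.27 (limma adjusted p = 1.0 for all 4). Both combined libraries lay above both vector libraries for 5 members (17.2%), Mal, Tspan2, Myrf, Hapln2 and Enpp6, against 12.9% of all tested genes, and below for 0, against 11.4%. The direction rested on combined library 2. Without it the median was -0.07 and the remaining combined library lay below both vector libraries for 11 members, against 29.3% of all tested genes. Without combined library 1 the median was 0.41 and the remaining library lay above both vector libraries for 29 of 29, against 40.4%.

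Combined was compared with AKG to ask what the virus changed in mice given AKG. Of the members 26 lay above the AKG group and 3 below, with a median of 0.17 against -0.00 for all tested genes, and limma called 0 of them and 0% of all. None had an unadjusted p under 0.05, against 1.14% of all. Hapln2 was at 0.43 ± 0.31 and Mbp at 0.40 ± 0.30, while Olig2 was at -0.12 ± 0.27 and Ugt8a at -0.09 ± 0.45 (limma adjusted p = 1.0 for all 4). Mal, Tspan2 and Hapln2 were higher in both combined than in both AKG libraries (10.3% of members against 11.3% of all tested genes), and 0 were lower, against 11.8%. The median was -0.10 without combined library 2 and 0.40 without combined library 1. Without combined library 2 the other combined library lay below both AKG libraries for 16 members (34.9% of all tested genes), and without combined library 1 the remaining one lay above both for 28 (37.6%).

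The interaction asks whether the virus acted differently with and without AKG, taken as combined minus AKG minus the difference of vector from control. Its median over the members was 0.27 against 0.01 for all tested genes, with 22 members above 0 and 7 below, and limma called 0 members and 0% of all tested genes. At an unadjusted p under 0.05 there were 0 members and 7.28% of all. Mbp was at 0.77 ± 0.42 and Ppp1r14a at 0.60 ± 0.47, while Myrf was at -0.45 ± 0.42 and Olig2 at -0.24 ± 0.38 (limma adjusted p = 0.540, 0.597, 0.644 and 0.777). Without control library 1 the median was 0.50 and 0 members were called. Without control library 2 it was -0.14, and limma called 1 member, Myrf, and 9.98% of all tested genes.

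**Figure D4:**
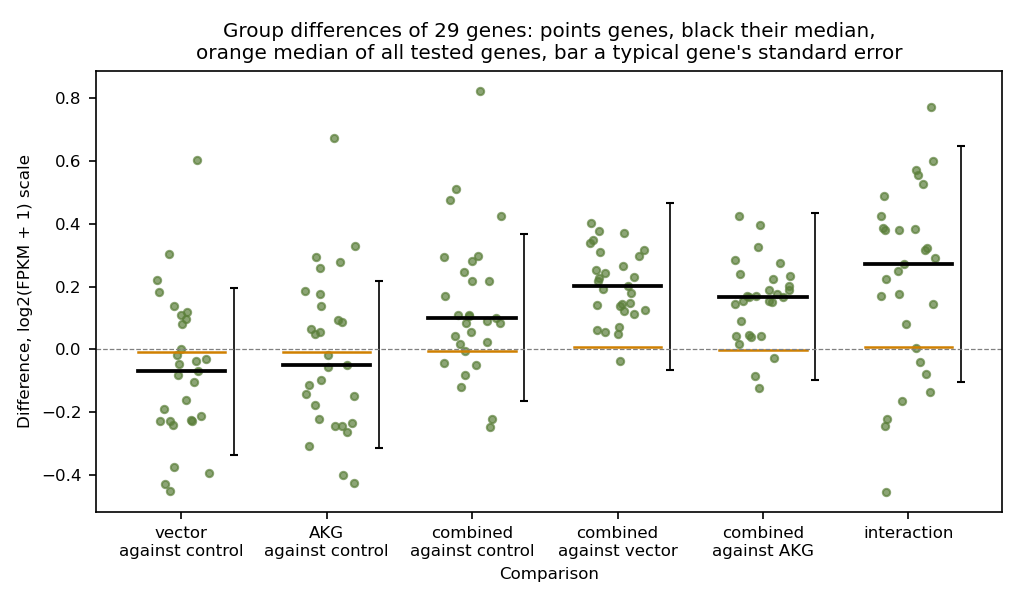
Differences of the 29 genes in 6 comparisons on the log2(FPKM + 1) scale (points), with their median (black bar), the median of all tested genes (orange bar) and the median standard error of the 29 genes drawn about that median (error bar). The members' medians run from -0.07 to 0.27, and Myrf is the highest point in the comparisons with control at 0.60, 0.67 and 0.82.

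By role, the medians of the differences are given as a description. Against vector, all 10 membrane protein genes, all 5 genes of the cytoskeleton and all 6 transcription factors were higher in the combined group by the fitted mean, with medians of 0.25, 0.15 and 0.14. The lipid enzymes, with 3 of 4 higher, had a median of 0.09, and the connexins, carbonic anhydrase and matrix genes, with 4 of 4, one of 0.28. Of all tested genes 52.3% lay higher. This direction rested on combined library 2, since without it all 5 roles had medians below 0, from -0.15 to -0.01. Against control, the cytoskeleton genes had medians of -0.23 in the vector group and -0.22 in the AKG group, and the membrane protein genes of -0.13 and -0.12. Transcription factors were at -0.04 and 0.11, lipid enzymes at 0.11 and 0.18, and the connexin group at -0.06 and 0.08. Without control library 1 all 5 roles had medians below 0 in both groups, from -0.57 to -0.27 for vector and from -0.50 to -0.15 for AKG. Without control library 2 only the membrane protein genes had medians below 0, at -0.01 for vector and -0.02 for AKG. The other roles then had medians from 0.30 to 0.47 for vector and from 0.27 to 0.58 for AKG, so these signs turned on the control library used. None of the estimates passed the test, and differences between roles were not tested.

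A list of 49 other genes of mature oligodendrocytes, 48 of them tested, was measured in the same libraries. Replicate 2 was above replicate 1 for 40 of the 48 in the combined group and for 39 in the control group, with median log2 differences of 0.42 and 0.47. Csrp1, a LIM-domain protein, was at 274 and 278 FPKM in control, 229 and 185 in vector, 204 and 233 in AKG and 211 and 316 in combined libraries. Ptgds, a prostaglandin synthase also made by the meninges and choroid plexus, ran the other way in control, at 606 and 233, with 272 and 247 in vector, 276 and 341 in AKG and 299 and 420.2 in combined libraries. The sum of the list in control library 1, 2165 FPKM with Ptgds included, was the third highest of the 8. The list's median deviation from the mean of the 8 libraries, on the log2(FPKM + 1) scale, was lowest in that library, at -0.17. Qdpr, which recycles tetrahydrobiopterin, was at 122 and 168, 121 and 99.9, 110 and 122, and 108 and 175 in the control, vector, AKG and combined libraries. None of the 48 was called in any of the 6 comparisons, and their medians were -0.09 for vector against control, -0.06 for AKG against control, 0.08 for combined against control, 0.19 for combined against vector and 0.14 for combined against AKG. With control library 1 left out the first 3 were -0.22, -0.22 and -0.09.

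Among 15 tested markers of oligodendrocyte precursors, the cells that give rise to oligodendrocytes, replicate 2 of the combined group was above replicate 1 for 6, with a median of -0.09, and Pdgfra, the growth factor receptor that marks these cells, was at 6.84 and 6.39 FPKM there. Their summed level was 197 to 204 FPKM in the 7 libraries other than control library 1, which was at 166. Against control, 13 of 15 lay higher with the virus (median 0.21), 10 with AKG (0.18) and 13 with both (0.22), with 0 called. Leaving out control library 1 gave 12 (0.10), 8 (0.07) and 10 (0.08), again with 0 called. Whether mature and precursor genes differed from each other was not tested.

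Markers of other cells are given as measured, whether or not they moved with the members. The 5 red blood cell genes had the members' pattern between replicates, with replicate 2 higher for 5 of 5 in the control, AKG and combined groups and for 0 of 5 in the vector group. They summed to 14.6 and 444 FPKM in control, 243 and 172 in vector, 183 and 297 in AKG and 208 and 375 in combined libraries. The 10 microglia markers summed to 243 and 213 FPKM in control, 176 and 160 in vector, 172 and 199.8 in AKG and 176 and 226 in combined libraries, and all 10 were higher in combined library 2 than in combined library 1. The 10 neuron markers were higher in control library 2 than in control library 1 for 10 of 10, with a median log2 difference of 0.59, and differed by -0.03 between the combined libraries. All 8 endothelial markers were also higher in control library 2 than in control library 1. Their median log2 differences of replicate 2 from replicate 1 were 0.43 in control, -0.12 in vector, 0.19 in AKG and 0.13 in combined libraries. The 10 astrocyte markers had the members' direction in the vector and AKG groups, with medians of -0.11 and 0.17. They had the opposite direction in the control and combined groups, with medians of -0.15 and -0.11. Choroid plexus markers, summing to 64.0 FPKM in combined library 1 and 4971 in combined library 2, were higher in the second for 10 of 10. Their order was not that of the members throughout, since control library 2, the second highest for the members, was at 455 and control library 1 at 8970. The part of any of these cell types in the members' values was not tested. Of 10 markers of Schwann cells, which make myelin in peripheral nerve, 3 reached the mean of 1 FPKM needed for testing, and Pmp2 and Foxd3 were listed at 0 in all 8 libraries.

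**Figure D5:**
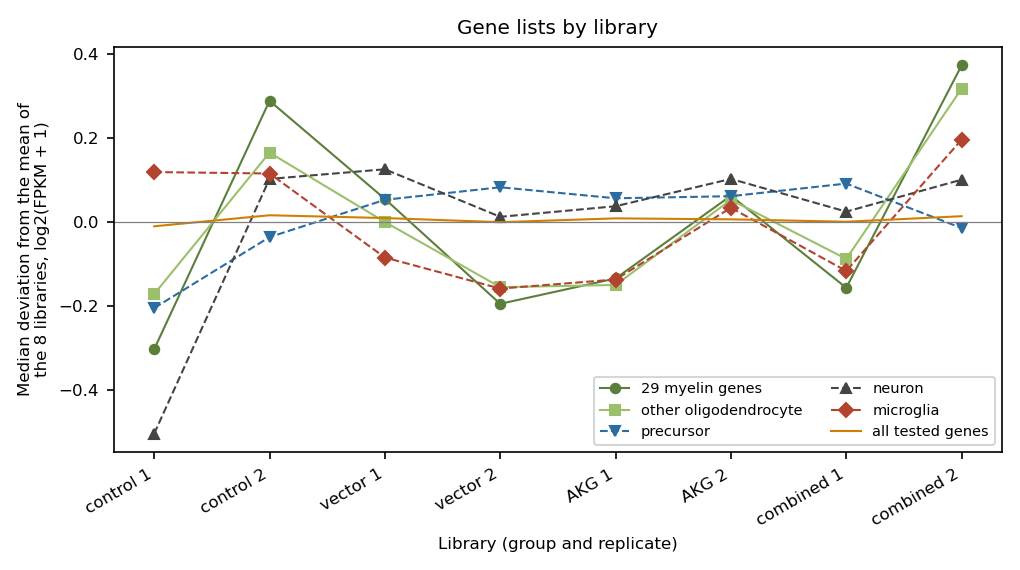
Median deviation of each gene list from its mean over the 8 libraries, on the log2(FPKM + 1) scale, by library. The 29 myelin genes and the other oligodendrocyte genes rise and fall together, highest in combined library 2 at 0.37 and 0.32, while the precursor list is at -0.01 there and the median of all tested genes stays near 0.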

How the data were processed

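RNA-seq of 8 substantia nigra libraries (4 groups, 2 each) was analysed. Total RNA went into a SMARTer mRNA-seq kit, per the labels' protocols, and GRCm38 and mm10 are the builds in the submitters' processing notes. No source used here names an aligner, a counter or a strand setting, so reads from antisense genes cannot be told apart. The authors deposited 1 table of FPKM with gene lengths, per the file headers. Multiplied by length and divided by a constant fitted for each library, 100% of FPKM values were whole numbers of reads to within 0.01. This gave each library's total (16544190.0 to 19125423 per library, with counting error only). Depth limits Enpp6 and Nkx2-2 most among the members.

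Genes averaging 1 FPKM or more entered limma 3.58.1 (R 4.3.3) as log2(FPKM + 1) (1 mean per group over all 8 libraries, mean-variance trend, two-sided, Benjamini-Hochberg over 13716 genes, threshold 0.05), after a test on simulated data. The unit is FPKM, so the count-based fit (voom on the recovered reads) is an alternative only. The 29 members, the marker lists and the tests were chosen with earlier results of these data known, so lists are described by counts and medians. All members are named. Values in every library are given for the 2 highest and 2 lowest differences of each comparison, the 5 highest mean levels and 8 preset genes, plus Aspa and Pdgfra, added after their values were seen. Of other lists, up to 4 genes with the highest mean are named. Alternatives were pseudocount, filter, scaling, block, weights, voom, length trend, a fit on the compared groups alone, and each library left out in turn, for all members, roles and lists. The table's coordinates matched GENCODE M21 for 28 of 29 members, all but Opalin. Python 3.11.15, pandas 2.3.3, numpy 2.4.6, scipy 1.17.1 and matplotlib 3.10.9 were used.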

Additional observations from a re-analysis of the deposited data

Results flagged for a closer look

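The libraries of Mal were ordered in opposite directions with and without the other treatment. How many of all tested genes had this order was not counted. Both vector libraries lay below both control libraries (-0.16 on the log2(FPKM + 1) scale), whereas both combined libraries lay above both AKG libraries (0.23). In the same way both AKG libraries lay below both control libraries (-0.14) and both combined libraries above both vector libraries (0.24). The difference itself, as the interaction term over all tested genes, was 0.39 ± 0.20 and did not pass (limma adjusted p = 0.537). Without combined library 2 the other combined library, at 132 FPKM, lay only just above vector library 1 at 130.2 and AKG library 2 at 131.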

How the results depend on the processing

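Under the 59 fits that changed the pseudocount, the filter, the scaling, the weights, the length trend, the tool (voom) or the groups in the fit, or added a block, 0 members were called in every comparison, as with the settings used. The members' median stayed within -0.08 to 0.03 for vector against control and -0.06 to 0.09 for AKG against control, where its sign thus depended on the setting. It stayed within 0.09 to 0.19 for combined against control, 0.16 to 0.22 for combined against vector, 0.15 to 0.17 for combined against AKG and 0.13 to 0.28 for the interaction. Deviations of same-numbered libraries correlated at -0.32 to 0.34 over the 6 pairs of groups. Each correlation sets 1 difference per group against another, so it cannot show whether same-numbered libraries shared a batch. With the replicate number as a block 0 members were called in each comparison, and for AKG against control 0 genes in all, against 1 without it. Each fit of 1 group against another gave a higher and a lower count of members whose groups do not overlap. Of 100 such counts, 7 moved by over 1.5 times, or to or from 0. Quantile normalization gave 3 higher and 2 lower for vector against control, 3 higher for AKG and 5 for combined against control. Removing the length trend gave 0, 3 and 3 higher for vector against control, combined against control and combined against vector. With the settings used, the shares of all tested genes were 26.3% higher and 27.6% lower for vector against control. The shares higher were 26% for AKG against control, 21.3% for combined against control and 12.9% for combined against vector.

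Leaving out 1 library at a time gave members' medians from -0.32 to 0.26 for vector against control and -0.36 to 0.31 for AKG against control. They ran from -0.20 to 0.40 for combined against control and from -0.14 to 0.54 for the interaction. Members called without control library 2 are given above, each count beside the share of all tested genes called. Over all 29 members, leaving out 1 library at a time changed the sign of 19 for vector against control, 19 for AKG against control, 25 for combined against control, 21 for combined against vector, 23 for combined against AKG and 17 for the interaction. Among the 4 members with the most extreme differences of each comparison, those that changed sign were Gjc3 (-0.13 to 0.73) for vector against control, Tmem88b (-0.21 to 0.87) for AKG against control, and Plekhb1 (-0.55 to 0.058) and Car2 (-0.59 to 0.14) for combined against control. For combined against vector they were Ugt8a (-0.27 to 0.20), Olig2 (-0.16 to 0.26) and Ppp1r14a (-0.032 to 0.79). For combined against AKG they were Olig2 (-0.34 to 0.090) and Ugt8a (-0.32 to 0.15), and for the interaction Myrf (-0.96 to 0.056) and Olig2 (-0.65 to 0.16). Where 1 library remained in a group, its spread was taken from the other groups. The cause was not tested.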

Other observations

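Within the members, the control libraries split the genes. Control library 2 was at least 2 times control library 1 for 8 members (Mag, Ermn, Ugt8a, Fa2h, Gjb1, Myrf, Tmem88b and Bcas1), while 7 were within 1.2 times either way (Mobp, Mal, Cldn11, Opalin, Aspa, Plekhb1 and Nkx6-2). The combined libraries did not split them in that way: the log2 ratio of the control libraries and that of the combined libraries had a Spearman rho of 0.09 across the 29 genes, which share their libraries and are not independent replicates. The ratio of control library 2 to control library 1 had a Spearman rho of 0.28 with gene length over the members and of 0.44 over all 13716 tested genes, and that of the combined libraries one of -0.33 and -0.40.

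Some oligodendrocyte genes outside the members did not follow combined library 2. Tppp, a tubulin-binding protein of myelinating cells, was at 84.4 FPKM in combined library 1 and 80.8 in combined library 2, and the lipid transporter Abca2 at 46.3 and 42.5. The transcription factor Tcf7l2, which marks newly formed oligodendrocytes, was at 20.0 and 16.6 there, and at 7.46 in control library 1 against 15.8 in control library 2. These 3 genes were chosen after their values were seen.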
